A study of Mus musculus with 21 samples.

Results

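The genes described here encode lysosomal hydrolases, lysosomal membrane proteins and subunits of the vacuolar proton pump (V-ATPase), measured in B16-F10 melanoma cells under low oxygen or cobalt chloride (CoCl2). They were taken by gene symbol: cathepsins (Cts followed by a letter), symbols starting with Atp6v or Atp6ap, and 22 named lysosomal genes, each represented by its single-gene probe set with the highest mean over the arrays. The rule found 49 genes among the 8251 genes measured: 13 cathepsins, 8 glycosidases, 1 sulfatase (Arsa), 6 lipid hydrolases and other hydrolases or their activators, 6 membrane proteins and 15 V-ATPase genes. Galns, the 22nd named gene, was not analysed here because no single-gene probe set in the annotation carried its symbol. The rule uses symbols and mean level and no difference between groups, though it was written with earlier results of these data known. No filter on low values was applied, so each of the 49 entered the fit.

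Lysosomes are acidic organelles in which hydrolases break down proteins, glycans, lipids and nucleic acids delivered by endocytosis and autophagy. The V-ATPase acidifies them: its membrane sector V0 carries protons, its cytosolic sector V1 hydrolyses ATP, and the accessory proteins Atp6ap1 and Atp6ap2 take part in its assembly. In pigment cells the melanosome, where melanin is made, is a lysosome-related organelle that shares several of these proteins, among them Cd63. Transcription factors of the Mitf and Tfeb family bind promoters of many lysosomal genes at sites with the core CACGTG.

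B16-F10 is an established melanoma line from C57BL/6J mice, profiled on 21 Affymetrix U74Av2 arrays in 9 groups. At 1% oxygen for 24 h, 3 arrays came from a sealed chamber and 3 each from experiments 1 and 2 in a flow-regulated incubator, and each of these 3 sets had 2 control arrays at 21% oxygen. Experiment 3 had 2 control arrays at 21% oxygen, 2 arrays after 24 h with 100 µM CoCl2 and 2 after 24 h with 200 µM. The labels give no oxygen level for the CoCl2 arrays and no duration for the controls, and all arrays are of the same cell line with no genetic change named. The labels describe CoCl2 as mimicking hypoxia. In bulk RNA, fewer cells of a type and less RNA per cell cannot be told apart. Values are the authors' log2 RMA values, so a difference of 1 is a 2-fold change, and differences are treated minus own controls ± standard error of the model. The 2 control arrays whose titles name no experiment were taken as those of the chamber. Replicates are named biological in the labels, which do not say whether cultures were separate; a p-value here reflects only how far such arrays spread. Precision is limited by the 2 or 3 arrays of a group.

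Arrays of a group correlated at 0.993 or more across genes in 7 groups, and at 0.98 and 0.986 in the 100 µM and 200 µM pairs. RNA quality was read from the 3′ minus 5′ signal of the Actb control probe sets, larger in poorer RNA. It ran from 0.15 to 0.50 (log2) on the 15 hypoxia-set arrays and from 0.50 to 2.36 on the 6 of experiment 3. The same signal of the Gapdh control probe sets ran from 0.07 to 0.52 and from 0.12 to 2.21. Melanocyte markers had high levels in every control group (mean of the 8 measured markers 9.00 to 9.17 per array) and fell to 7.46 and 7.70 at 100 µM and to 6.42 and 6.62 at 200 µM CoCl2, so the labelled cell type was borne out in the controls. Leukocyte markers are listed because Cd68 and several cathepsins are abundant in macrophages. The mean of the 11 measured markers was 4.34 to 4.67 per array in the hypoxia sets, 4.40 and 4.45 in the controls of experiment 3 and 4.57 to 4.77 with CoCl2. The mean levels of 8 of them, Ptprc, Adgre1 and Csf1r included, lay between the 5.7 and 27.2 percentile of all genes, and those of Mpeg1, Cd3e and Cd14 at the 42.7, 55.5 and 67.4 percentile.

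Promoter sequence was a feature that the choice of genes did not use. RefSeq start sites (GRCm38.p6) were found for 38 of the 49 genes, with 40 entries. The 250 bases before each start were searched on both strands for CACGTG, for TCACGTGA and for ACGTG. The last is a form of the core of a hypoxia-response element, and the other form, GCGTG, was not searched. Because CACGTG reads the same on both strands, each match to it also holds ACGTG, and TCACGTGA holds both. CACGTG stood in 11 of the 40 promoter entries (27.5%), against 8.2% of 8408 entries of genes on the array and 6.0% of all 32851 entries. TCACGTGA stood in 4 entries (10.0%, against 1.4% and 0.8%) and ACGTG in 15 (37.5%, against 20.6% and 16.6%). These 15 include the 11 entries with CACGTG, so the ACGTG share is not a separate count. The share of ACGTG outside CACGTG was not compared. The promoters below are 4 with the core and, for contrast, those of the genes with the highest rise and the deepest fall. Each line runs 5′ to 3′ and ends at the base before the start site, with ACGTG on either strand in capitals.

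Ctsa, chr2:164833523-164833772, plus strand: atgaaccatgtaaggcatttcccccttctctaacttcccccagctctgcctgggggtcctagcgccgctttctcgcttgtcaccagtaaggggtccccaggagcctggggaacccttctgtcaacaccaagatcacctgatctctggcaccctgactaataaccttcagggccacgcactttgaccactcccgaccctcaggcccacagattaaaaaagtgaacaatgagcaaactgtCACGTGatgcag

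Ctsd, chr7:142387828-142388077, minus strand: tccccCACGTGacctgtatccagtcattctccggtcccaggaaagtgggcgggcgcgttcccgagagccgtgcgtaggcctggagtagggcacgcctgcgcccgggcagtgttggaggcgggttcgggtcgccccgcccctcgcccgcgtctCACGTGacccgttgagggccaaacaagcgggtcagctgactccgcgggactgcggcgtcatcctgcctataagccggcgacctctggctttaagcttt

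Lamp1, chr8:13158911-13159160, plus strand: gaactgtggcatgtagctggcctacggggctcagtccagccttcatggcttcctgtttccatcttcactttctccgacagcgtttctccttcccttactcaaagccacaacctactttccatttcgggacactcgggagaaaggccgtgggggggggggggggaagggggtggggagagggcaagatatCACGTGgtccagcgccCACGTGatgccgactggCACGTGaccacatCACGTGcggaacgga

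Atp6v0b, chr4:117887330-117887579, minus strand: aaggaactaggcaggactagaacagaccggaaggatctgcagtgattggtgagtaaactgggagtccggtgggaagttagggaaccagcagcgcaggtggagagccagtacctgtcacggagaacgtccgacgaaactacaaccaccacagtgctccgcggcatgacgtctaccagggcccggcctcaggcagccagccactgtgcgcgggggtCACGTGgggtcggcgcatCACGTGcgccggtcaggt

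Cd68, chr11:69666171-69666420, minus strand: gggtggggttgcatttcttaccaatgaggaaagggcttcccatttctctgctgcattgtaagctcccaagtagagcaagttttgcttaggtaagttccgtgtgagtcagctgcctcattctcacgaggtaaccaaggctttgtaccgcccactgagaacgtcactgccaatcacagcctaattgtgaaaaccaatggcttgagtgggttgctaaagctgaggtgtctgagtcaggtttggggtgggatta

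Gusb, chr5:130003050-130003299, minus strand: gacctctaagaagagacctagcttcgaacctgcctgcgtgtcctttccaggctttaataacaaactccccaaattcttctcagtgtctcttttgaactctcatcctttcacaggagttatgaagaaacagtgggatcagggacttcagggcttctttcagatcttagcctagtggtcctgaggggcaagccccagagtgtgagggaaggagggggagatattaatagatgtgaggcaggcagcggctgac

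Lamp1 held 4 copies of CACGTG, Ctsd and Atp6v0b held 2 each, and Ctsa held 1 (in 1 of its 2 entries). Neither Cd68 nor Gusb held any of the 3 motifs in this window. GCGTG, which was not searched, does stand in the Gusb window above, and on the other strand in the Ctsa and Ctsd windows. The 11 genes with CACGTG were Arsa, Atp6v0b, Atp6v1a, Ctsa, Ctsd, Ctsf, Ctsl, Gaa, Gla, Glb1 and Lamp1. A match describes letters and shows no binding, and no match says only that the letters are not in this window.

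Under low oxygen some lysosomal genes were higher and others lower. Taking the mean of the 3 hypoxia sets (9 hypoxia and 6 control arrays), 10 of 49 genes rose (20.4%), 7 fell (14.3%) and 32 did not pass the test (limma, adjusted over all genes). Of all 8251 genes, 12.6% rose and 19.5% fell, so the members' share was above the background for rises and below it for falls, a difference that was not tested. The median change was 0.00 for the 49 genes and 0.01 for all genes. Cd68 (0.84), the protective protein and carboxypeptidase cathepsin A (Ctsa, 0.83), the cysteine protease cathepsin B (Ctsb, 0.68), Arsa (0.62) and Atp6ap1 (0.58) rose most. The β-glucuronidase gene Gusb fell most (-1.22), followed by the proton-pump subunit gene Atp6v0a2 (-0.76) and the aspartic protease gene Ctse (-0.53).

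**Figure D1:**
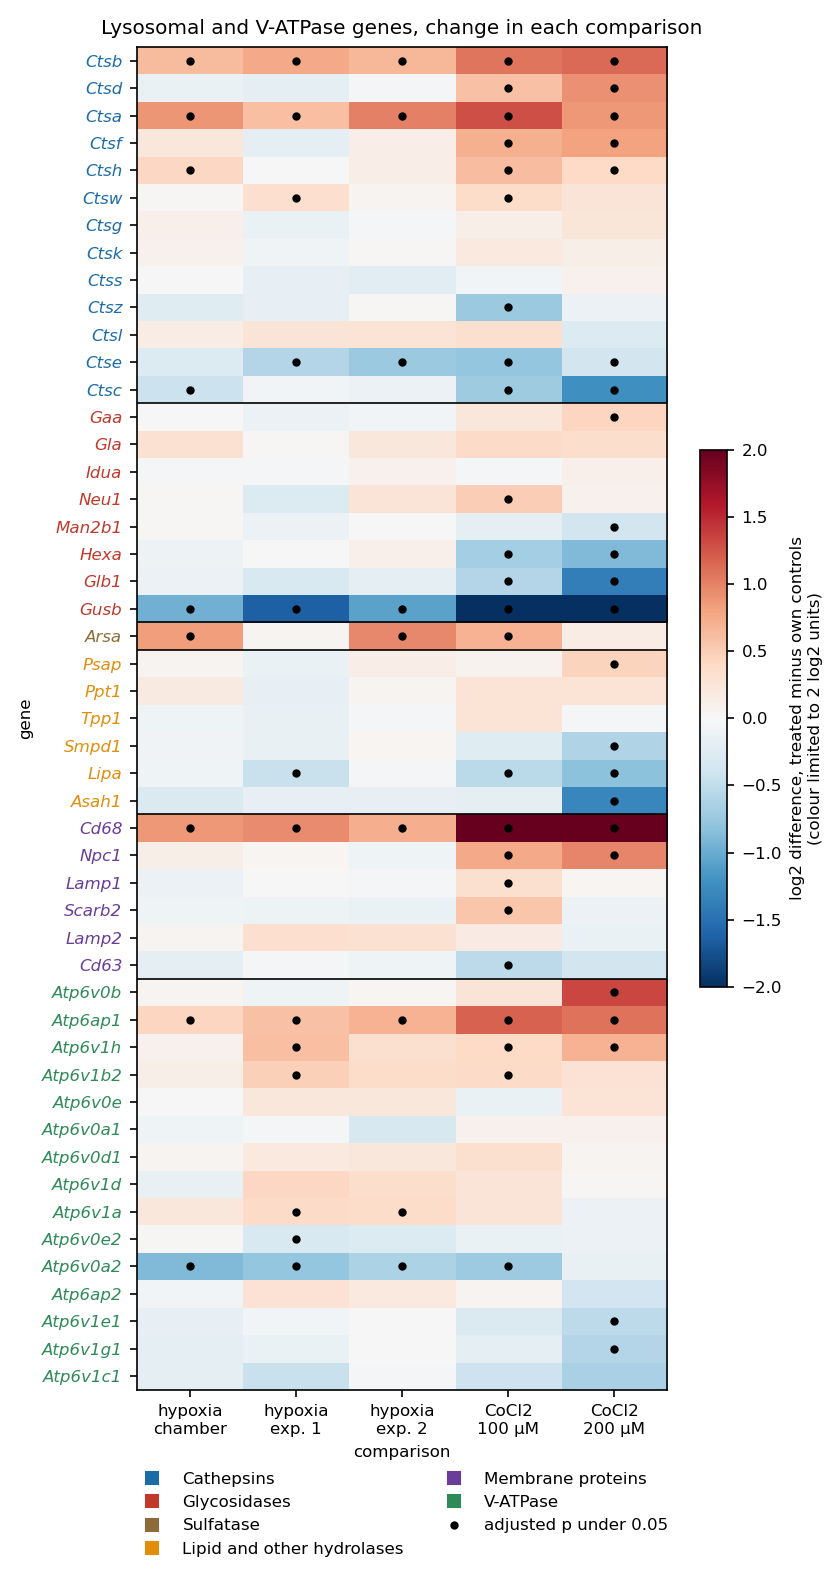
Log2 differences (treated minus own controls) of the 49 genes in the 3 hypoxia sets and at both CoCl2 doses, grouped by role; colour runs from blue (lower) to red (higher) and is limited to 2 log2 units, and a black dot marks an adjusted p under 0.05. Cd68, Ctsa, Ctsb and Atp6ap1 are marked as higher and Gusb as lower in each of the 5 columns.

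Among the cathepsins, which are lysosomal proteases, 3 rose and 2 fell in hypoxia, and 8 did not pass. The shares were 23.1% and 15.4%, against 12.6% and 19.5% over all genes, a difference that was not tested. Ctsa was 8.41 to 8.99 (median 8.85) on the 9 hypoxia arrays and 7.81 to 8.03 (median 8.01) on the 6 controls, a change of 0.83 ± 0.07 (1.78-fold; limma adjusted p = 2.4e-09). Ctsb was 9.48 to 9.90 (median 9.66) against 8.85 to 9.26 (median 8.94), a change of 0.68 ± 0.09 (1.60-fold; limma adjusted p = 5.6e-06). Every hypoxia array lay above every control array for these genes. Of 3 further Ctsb probe sets 1 rose by the same size (0.68) and 2 did not pass (0.08 and 0.13). The smaller changes were those of the aminopeptidase gene Ctsh (0.18) and of Ctsc (-0.20), which encodes dipeptidyl peptidase 1. Both were largest in the chamber. In the order chamber, experiment 1 and experiment 2, Ctsh read 0.41, 0.01 and 0.14 and Ctsc -0.43, -0.05 and -0.12. A further Ctsc probe set also fell (-0.29; by set -0.18, -0.46 and -0.23), and another did not pass (0.01).

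Ctse ran the other way, at 6.45 to 6.85 (median 6.72) in hypoxia against 6.97 to 7.47 (median 7.22) in controls, with no overlap (-0.53 ± 0.07; limma adjusted p = 2.3e-06). A further Ctse probe set also fell (-0.45), and another did not pass (0.13). The protease genes Ctsd (-0.12), Ctsl (0.23) and Ctsz (-0.13) did not pass, nor did Ctsf (0.06), Ctsw (0.14), Ctsg, Ctsk and Ctss. Ctsg and Ctss had mean levels of 2.48 and 2.83, at the 3.0 and 6.2 percentile of all genes, where RMA values compress a change.

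Of the 8 glycosidases among the members 2 fell in hypoxia (25%) and none rose by limma (also none at an unadjusted p under 0.05). Over all genes 19.5% fell and 12.6% rose, and the difference from the glycosidases was not tested. Gusb was 7.02, 7.08 and 7.14 in the chamber against 8.09 and 7.99 in its controls. In experiment 1 it was 6.35, 6.32 and 5.81 against 7.78 and 7.82, and in experiment 2 it was 6.73, 6.88 and 6.91 against 7.83 and 7.98. All 9 hypoxia arrays were below all 6 controls, by -1.22 ± 0.10 on average (2.33-fold lower; limma adjusted p = 1.6e-09). The β-galactosidase gene Glb1 fell by 0.21 with overlapping arrays (limma adjusted p = 0.014), while Hexa, Gaa, Gla, Idua, Man2b1 and Neu1 lay between -0.05 and 0.18. The single sulfatase gene, Arsa, which encodes arylsulfatase A, rose by 0.62 ± 0.11 (limma adjusted p = 0.00015), and its arrays overlapped. It was 7.83, 7.44 and 7.99 against 7.02 and 6.80 in the chamber and 7.84, 7.71 and 7.80 against 6.81 and 6.83 in experiment 2, but 7.19, 7.18 and 7.12 against 6.91 and 7.32 in experiment 1.

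Of the 6 lipid hydrolases and related enzymes, the acid ceramidase gene Asah1 fell (-0.21; limma adjusted p = 0.015). Lipa (acid lipase, -0.19), Smpd1 (acid sphingomyelinase, -0.06), Ppt1 (palmitoyl thioesterase, 0.02), Psap (saposin precursor, 0.02) and the tripeptidyl peptidase gene Tpp1 (-0.09) did not pass. Of 6 membrane proteins 2 rose (33.3%, over all genes 12.6%). Cd68, a heavily glycosylated protein of endosomes and lysosomes that is best known from macrophages, was 5.37 to 6.18 (median 5.68) in hypoxia and 4.66 to 5.07 (median 4.97) in controls. Its groups did not overlap, and the change was 0.84 ± 0.12 (1.79-fold; limma adjusted p = 1.2e-05). Over the same arrays the leukocyte markers had 1 rise among 11, that of Csf1r (0.19), and the 11 values ran from -0.01 to 0.20 with a median of 0.09. The part of other cells in the Cd68 values was not tested. The Cd68 value comes from a probe set of the _s_at kind, which can match several transcripts, and a further, dim probe set (mean 2.67) read 0.09 and did not pass. Lamp2 rose by 0.23 (limma adjusted p = 0.0090), but its other probe set read 0.08 and did not pass, and the mean of both gave 0.16 (adjusted p = 0.079). Lamp1 (-0.04), Cd63 (-0.11), Npc1 (0.03) and Scarb2 (-0.10) did not pass.

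V-ATPase genes moved in both directions in hypoxia. Of 7 V1 genes 3 rose, the catalytic subunit gene Atp6v1a (0.32), the nucleotide-binding subunit gene Atp6v1b2 (0.32) and Atp6v1h (0.33), and none fell by limma (also none at an unadjusted p under 0.05). Of 6 V0 genes 2 fell, Atp6v0a2 and Atp6v0e2 (-0.19), and none rose (also none at an unadjusted p under 0.05). The share that rose in V1 was 42.9% and the share that fell in V0 was 33.3%, against 12.6% and 19.5% over all genes. The V1 median was 0.20 and the V0 median -0.07. By set (chamber, experiment 1, experiment 2) the V1 medians were -0.15, 0.39 and 0.32 and the V0 medians 0.01, -0.06 and -0.12. In the chamber no V1 gene was called by limma (also none at an unadjusted p under 0.05). Neither the difference between the sectors nor that from all genes was tested. Atp6v0a2 was 6.92 to 7.33 (median 7.24) in hypoxia against 7.77 to 8.24 (median 8.01) in controls with no overlap (-0.76 ± 0.10; limma adjusted p = 2.2e-06). Its other probe sets also fell (-0.52 and -0.23). Atp6v1b2 was 10.04 to 10.46 against 9.78 to 9.97, again with no overlap. A further Atp6v1b2 probe set also rose (0.43). For Atp6v1a a further probe set rose (0.31) and another did not pass (0.10). The accessory gene Atp6ap1 was 8.42 to 8.74 (median 8.61) against 7.89 to 8.25 (median 7.99), with all hypoxia arrays above all controls (0.58 ± 0.08; limma adjusted p = 9.1e-06), and Atp6ap2 (0.14) did not pass. A further Atp6ap1 probe set (0.15) did not pass either. The remaining genes, Atp6v0a1, Atp6v0b, Atp6v0d1, Atp6v0e, Atp6v1c1, Atp6v1d, Atp6v1e1 and Atp6v1g1, lay between -0.21 and 0.20 and did not pass.

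**Figure D2:**
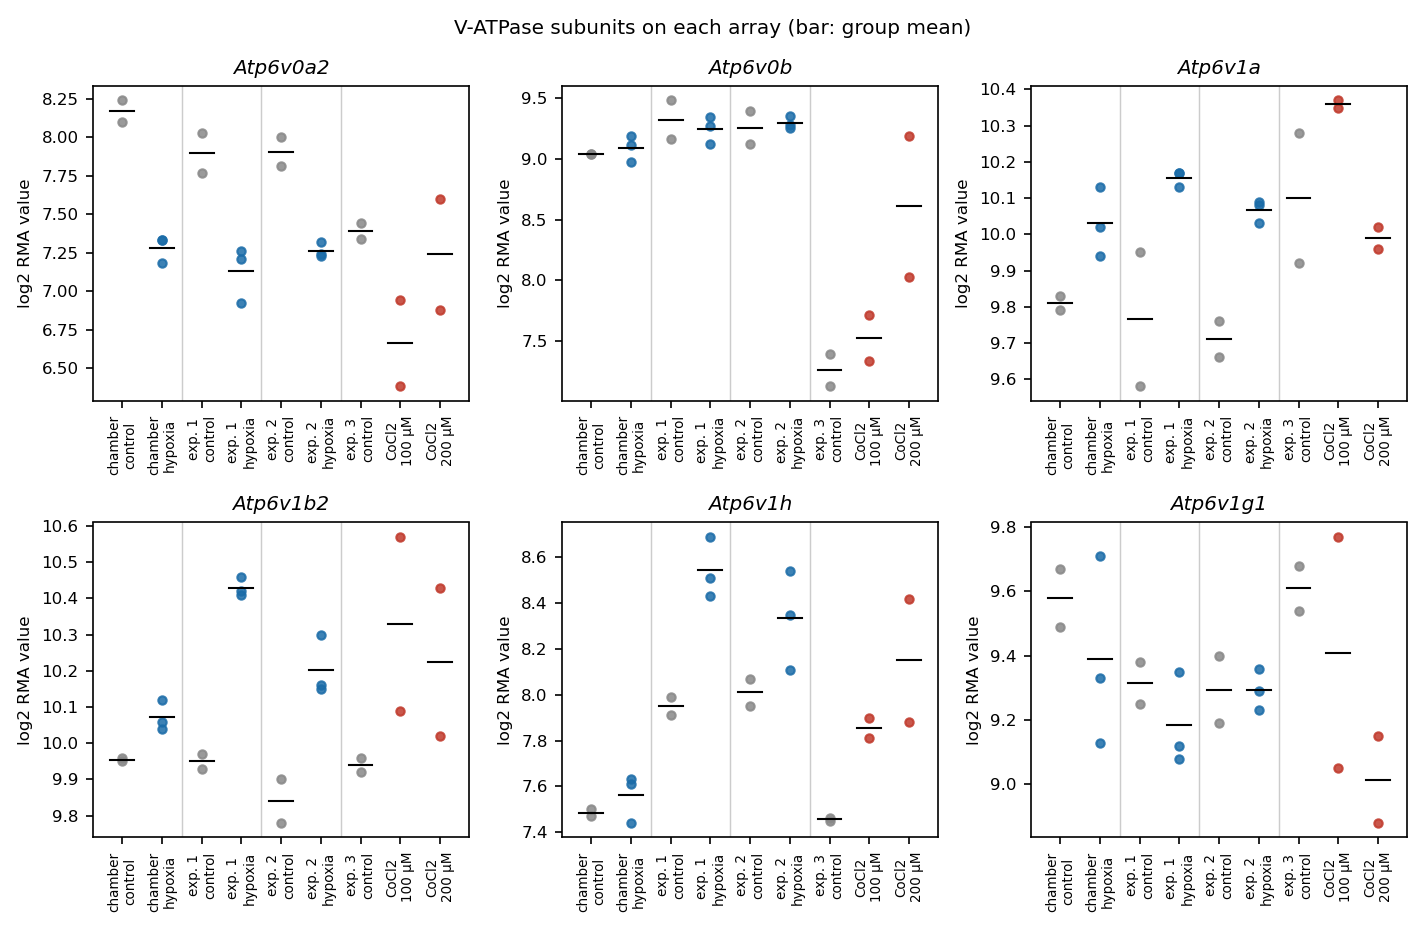
Log2 RMA values of 6 V-ATPase subunit genes on each of the 21 arrays, by group, with the group mean as a bar; grey points are controls, blue points hypoxia and red points CoCl2. Atp6v0a2 is lower in each hypoxia group than in its controls, and Atp6v0b starts near 7.13 to 7.40 in the controls of experiment 3, below all 15 arrays of the hypoxia sets.

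Each hypoxia set was also compared on its own. In the chamber 6 rose and 3 fell (over all genes 7.96% and 15.1%), in experiment 1 8 rose and 5 fell (7.57% and 10.7%), and in experiment 2 6 rose and 3 fell (7.55% and 7.79%). Atp6ap1, Ctsa, Ctsb and Cd68 rose and Atp6v0a2 and Gusb fell in each of the 3 sets (4 and 2 of 49; over all genes 3.09% and 4.65%). With the sets pooled, 5 genes had all hypoxia arrays above all controls and 3 had them below (over all genes 4.29% and 7.7%). A test of whether the 3 differences were equal called no member (limma F test; 8 at an unadjusted p under 0.05; over all genes 2.22% were called). Fitted on the 15 arrays of these sets alone, it called Arsa (adjusted p = 0.0072), Gusb (0.030) and Neu1 (0.039). For Gusb the set differences were -0.96, -1.64 and -1.07, and for Neu1 0.03, -0.28 and 0.26, each in the order chamber, experiment 1 and experiment 2.

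Some hypoxia calls rested on single arrays. Without chamber control 2 or experiment 2 control 1, 4 genes fell in place of 7. Ctsc lost its call without 11 of the 15 arrays (adjusted p from 0.051 to 0.13), Glb1 without chamber control 2 (0.074) or experiment 2 control 1 (0.056), and Asah1 without chamber control 2 (0.054) or experiment 1 control 1 (0.053). The chamber rises fell from 6 to 2 without either chamber control. In experiment 1 the rises went from 8 to 5 without control 1, and the falls from 5 to 2 without control 1 and to 3 without control 2 or hypoxia array 1. The calls of Cd68, Ctsa, Ctsb, Arsa, Atp6ap1, Atp6v1h, Gusb, Atp6v0a2 and Ctse for the mean of the sets held without any single array.

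With CoCl2 these genes again moved in both directions. At 100 µM 15 of 49 rose (30.6%) and 9 fell (18.4%), and over all genes 17.6% rose and 20.7% fell. At 200 µM 12 rose (24.5%) and 11 fell (22.4%), and over all genes 19.7% rose and 22.3% fell. The medians were 0.20 and 0.05, against 0.10 and 0.11 over all genes. Both doses were compared with the same 2 control arrays, so each dose is given by its own values. Cd68 rose most and Gusb fell furthest at each dose, as in hypoxia. On the same arrays all 8 melanocyte markers fell at each dose. Epithelial markers rose in 3 of 6 at 100 µM and 4 of 6 at 200 µM, among them Krt18 (0.33 and 0.46) and Cdh1 (0.54 and 0.49). Of 8 fibroblast markers 1 rose and 1 fell at 100 µM and 3 rose and 1 fell at 200 µM, and of 6 endothelial markers none was called at either dose by limma (also none at an unadjusted p under 0.05). The part of these markers in the results was not tested. The 4 CoCl2 arrays lay above both controls for 15 genes and below them for 9 (over all genes 28.6% and 20.9%).

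Cd68 was 7.16 and 7.25 at 100 µM and 8.11 and 9.24 at 200 µM, against 4.46 and 4.94 in the controls. Its changes were 2.50 ± 0.24 (5.67-fold; limma adjusted p = 2.9e-08) and 3.98 ± 0.24 (15.8-fold; limma adjusted p = 1.3e-11). The second Cd68 probe set read 0.18 and 0.09 and did not pass. Leukocyte markers had 1 rise among 11 at each dose, Cd3e (0.49) at 100 µM and Csf1r (0.40) at 200 µM. All 11 values were above 0 at each dose, from 0.09 to 0.49 and from 0.06 to 0.40, with medians of 0.27 and 0.20 (0.10 and 0.11 over all genes), and 5 and 2 were higher at an unadjusted p under 0.05. The part of other cells in the Cd68 values was not tested here either.

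Gusb was 5.78 and 6.40 at 100 µM and 5.48 and 5.65 at 200 µM, against 8.40 and 7.96 in the controls. Its changes were -2.09 ± 0.18 (4.26-fold lower; limma adjusted p = 1.1e-08) and -2.62 ± 0.18 (6.13-fold lower; limma adjusted p = 1.8e-10). All 4 CoCl2 arrays were below every one of the 8 control arrays of the series, whose lowest value was 7.78.

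**Figure D3:**
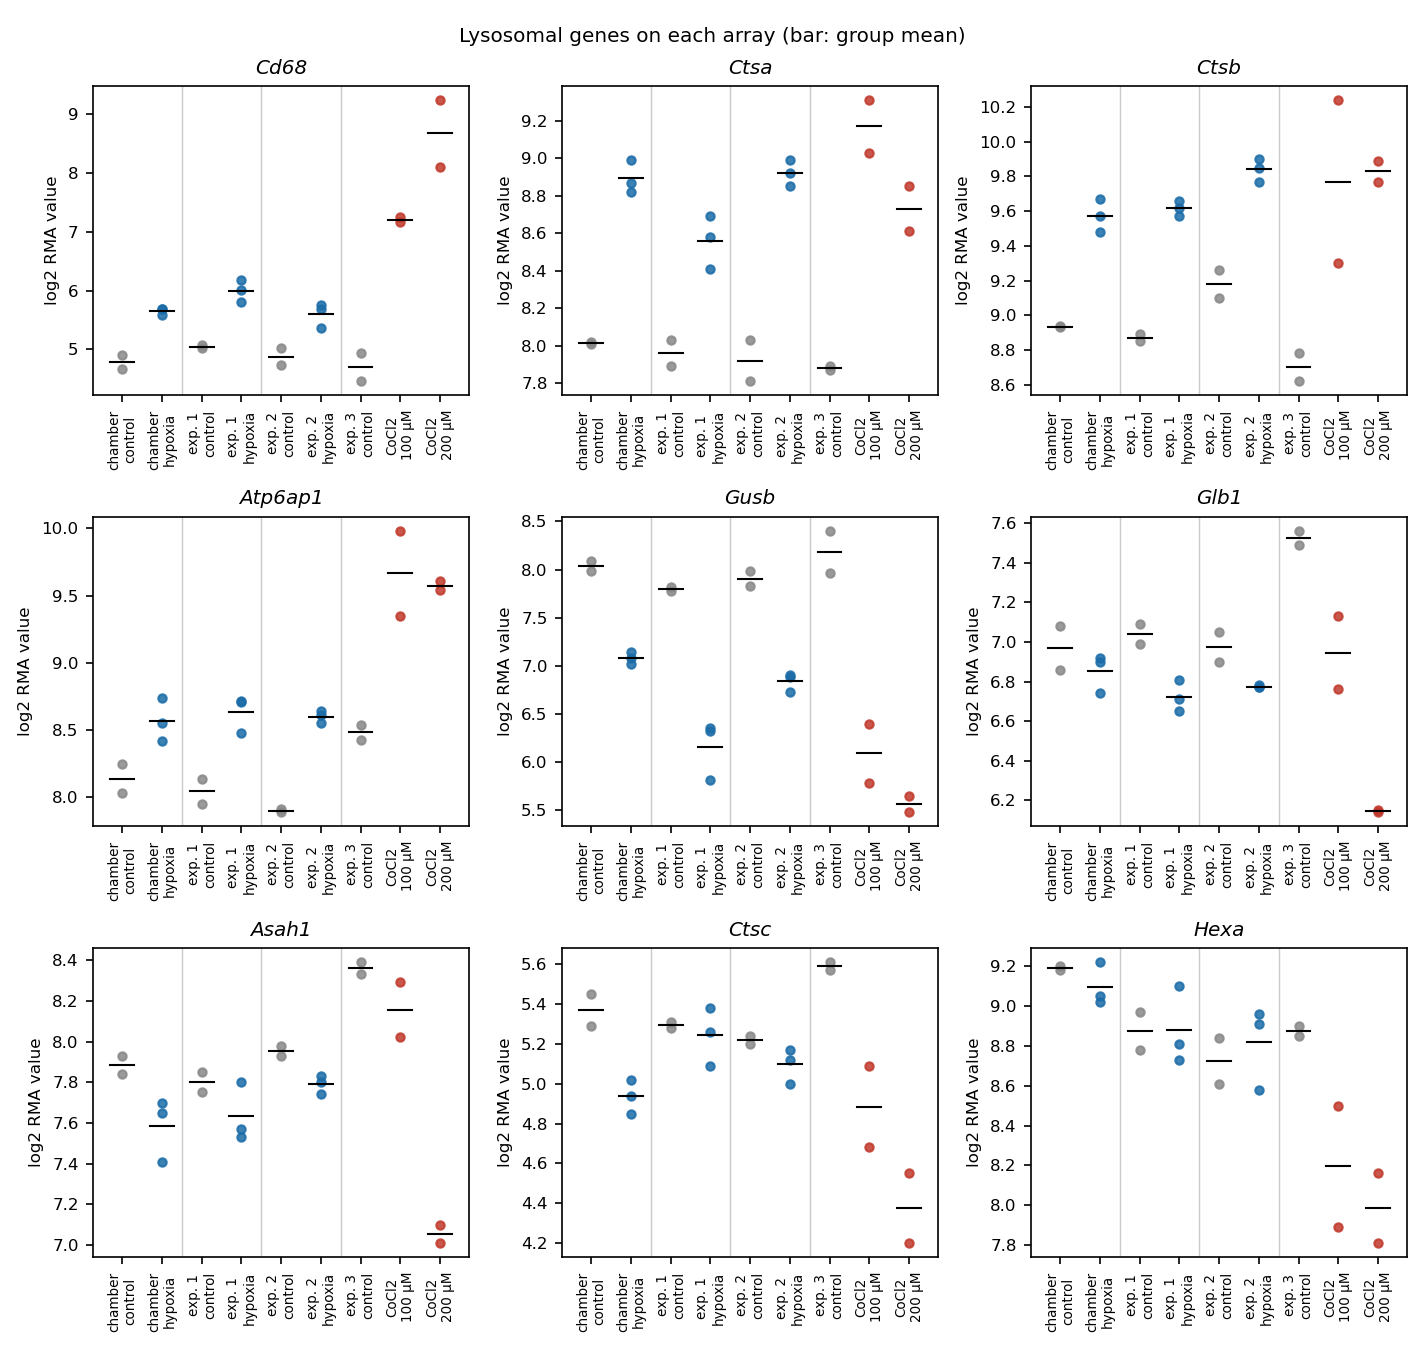
Log2 RMA values of 9 lysosomal genes on each of the 21 arrays, by group, with the group mean as a bar; grey points are controls, blue points hypoxia and red points CoCl2. Ctsa, Ctsb and Atp6ap1 are higher and Gusb is lower in each treated group than in its own controls, while Glb1 and Asah1 are lower at 200 µM than at 100 µM CoCl2.

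Of 13 cathepsins 6 rose and 3 fell at 100 µM (46.2% and 23.1%), and 5 rose and 2 fell at 200 µM (38.5% and 15.4%), to be read against the shares of all genes above, with the difference not tested. Ctsa was 9.03 and 9.31 at 100 µM and 8.61 and 8.85 at 200 µM, against 7.89 and 7.87, changes of 1.29 and 0.86. Ctsb was 9.30 and 10.24, then 9.77 and 9.89, against 8.62 and 8.78, changes of 1.07 and 1.13. Ctsb and Ctsa thus had every CoCl2 array above both controls. A further Ctsb probe set rose at 100 µM (0.90) and read 0.06 at 200 µM, where it was not called. The other Ctsb probe sets passed at neither dose (0.14 and 0.15, and -0.01 and -0.04). The major lysosomal aspartic protease gene Ctsd rose by 0.59 and 0.91, the cysteine protease gene Ctsf by 0.71 and 0.80, and Ctsh by 0.61 and 0.40. Ctsc fell by 0.71 and 1.22, and Ctse by 0.77 and 0.37. A further Ctsc probe set also fell (-0.44 and -0.38), and another passed at neither dose (-0.11 and -0.14). A further Ctse probe set fell too (-0.57 and -0.67), and another passed at neither dose (0.27 and 0.16). Ctsz fell at 100 µM (-0.75) and read -0.12 at 200 µM, Ctsw rose at 100 µM (0.37) and read 0.26 at 200 µM, and Ctsl passed at neither dose (0.32 and -0.28).

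Among the 8 glycosidases more genes were called lower than higher with CoCl2, a difference that was not tested. Of 8 glycosidases 1 rose and 3 fell at 100 µM (12.5% and 37.5%, over all genes 17.6% and 20.7%). At 200 µM 1 rose and 4 fell (12.5% and 50%, over all genes 19.7% and 22.3%). Glb1 was 6.76 and 7.13, then 6.14 and 6.15, against 7.49 and 7.56, changes of -0.58 and -1.38. The hexosaminidase α-subunit gene Hexa was 7.89 and 8.50, then 7.81 and 8.16, against 8.90 and 8.85 (-0.68 and -0.89). For Glb1 and Hexa each CoCl2 array was below both controls. A further probe set of Hexa read 0.32 and 0.01 and did not pass, while that of Glb1 read -0.09 and fell by 0.53 at the higher dose. Gaa, the acid α-glucosidase of glycogen breakdown, rose at 200 µM (0.43) and Neu1, a sialidase, at 100 µM (0.49). Man2b1 fell at 200 µM (-0.37), while its other probe set rose at 100 µM (0.73). Gla (0.39 and 0.35) and Idua (-0.03 and 0.10) passed at neither dose.

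Among the 6 lipid hydrolases and related enzymes, Lipa fell at both doses (-0.54 and -0.82). Asah1 was 8.02 and 8.29 at 100 µM, close to its controls of 8.33 and 8.39, and 7.01 and 7.10 at 200 µM (-0.20, not passing, and -1.31). Smpd1 fell at 200 µM (-0.60), Psap rose there (0.45, and 0.49 and 1.19 on its other probe sets), and Ppt1 (0.27 at each dose) and Tpp1 (0.27 and -0.03) did not pass. Arsa rose at 100 µM (0.70) and read 0.15 at 200 µM.

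Of the membrane proteins, the cholesterol exporter gene Npc1 rose at both doses (8.02 and 8.22, then 8.23 and 8.45, against 7.37 on each control; 0.75 and 0.97). Lamp1 (0.32) and Scarb2 (0.55), the receptor that carries β-glucocerebrosidase, rose at 100 µM and read 0.04 and -0.12 at 200 µM. Cd63 fell at 100 µM (-0.53) and read -0.37 at 200 µM. Lamp2 passed at neither dose on the chosen probe set (0.16 and -0.14), while its other probe set, with a lower mean of 5.82, rose by 1.40 and 1.48.

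V-ATPase genes had 3 rises and 1 fall among 15 at 100 µM (20% and 6.67%, over all genes 17.6% and 20.7%). At 200 µM they had 3 rises and 2 falls (20% and 13.3%, over all genes 19.7% and 22.3%). The difference from all genes was not tested. Atp6ap1 was 9.35 and 9.98, then 9.61 and 9.54, against 8.54 and 8.43, with no overlap (1.18 and 1.09). A further Atp6ap1 probe set read 0.32 and 0.45 and passed at neither dose. Atp6v1h, a regulatory V1 subunit gene, rose by 0.40 and 0.69. Atp6v1b2 rose at 100 µM (0.39), Atp6v0a2 fell there (-0.73), and at 200 µM both were not called (0.29 and -0.15). A further Atp6v1b2 probe set passed at neither dose (0.03 and 0.14). Of the other Atp6v0a2 probe sets, 1 fell at both doses (-0.41 and -0.56) and 1 passed at neither (0.02 and 0.06). The genes Atp6ap2, Atp6v0a1, Atp6v0d1, Atp6v0e, Atp6v1c1 and Atp6v1d were called at neither dose (-0.65 to 0.32). At 200 µM Atp6v1e1 (-0.52) and Atp6v1g1 (-0.59) fell. Atp6v0b, a proton-carrying V0 subunit gene, was 7.34 and 7.72 at 100 µM and 8.03 and 9.19 at 200 µM against 7.13 and 7.40 (0.26, not passing, and 1.34 ± 0.23; limma adjusted p = 6.2e-05).

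Experiment 3 differed from the other sets in its controls. Both of its control arrays lay below all 6 other controls for 17 of the 49 genes (34.7%; 16.5% over all genes) and above them for 8 (16.3%; 20.6% over all genes). The widest gaps were those of Atp6v0b, at 7.13 and 7.40 against 9.04 to 9.48, and Ctsd, at 9.67 and 9.77 against 10.55 to 10.85. The 200 µM array with the highest Atp6v0b value (9.19), array 2, also had the highest Ctsd value of that set (11.02), and both were at or above the lowest of the other controls. That array had an Actb 3′ minus 5′ value of 0.50, against 1.47 on the other 200 µM array, 1.41 and 1.62 on the controls and 2.36 and 2.16 at 100 µM. By Gapdh both 200 µM arrays were low (0.45 and 0.12), against 2.21 and 0.92 on the controls and 1.44 and 2.18 at 100 µM. The part of RNA quality in these values was examined by the Actb covariate fit only.

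**Figure D4:**
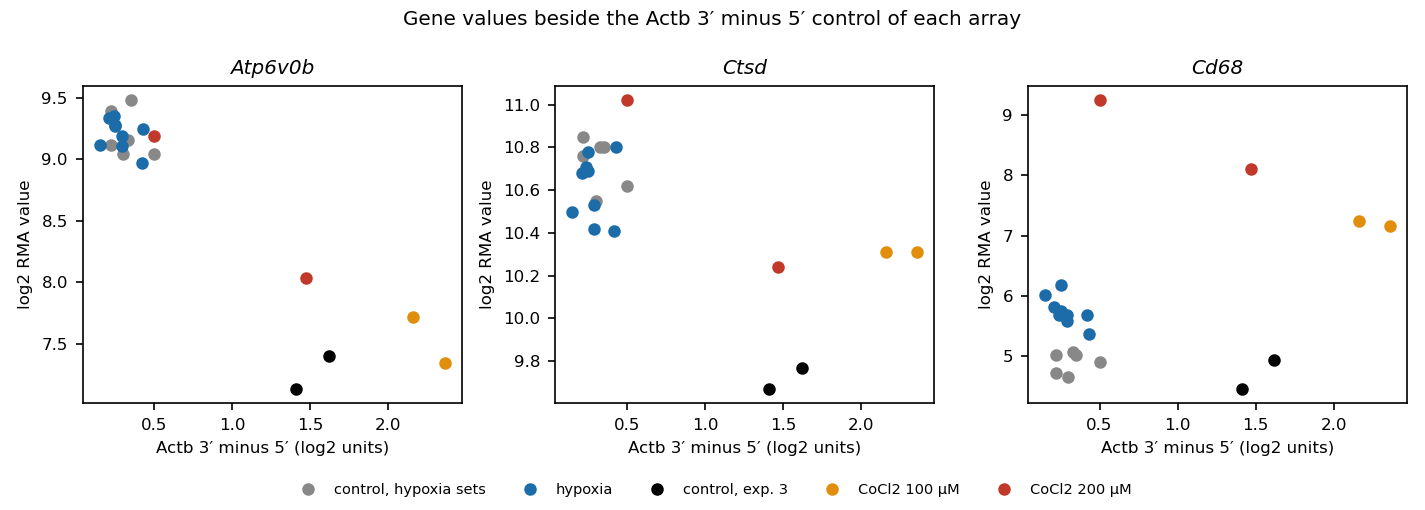
Log2 RMA values of Atp6v0b, Ctsd and Cd68 against the Actb 3′ minus 5′ control of the same array (log2 units), 1 point per array. For Atp6v0b the arrays of experiment 3 with Actb values of 1.41 or more lie between 7.13 and 8.03, and the 15 arrays of the hypoxia sets, with Actb values up to 0.50, at 8.97 or more.

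When the Actb difference entered the fit as a covariate, Ctsz (-0.34), Atp6v0a2 (-0.19), Hexa (-0.41) and Cd63 (-0.17) were not called at 100 µM (adjusted p from 0.24 to 0.71), and 4 genes fell there in place of 9. The 200 µM calls of Atp6v0b (0.80) and Ctsd (0.58) held under it. The slope of this covariate comes from Actb spread within groups, which was widest in the 200 µM pair (1.47 and 0.50). The fit therefore rests largely on that pair and cannot tell RNA quality from other differences between its arrays. With only the 6 arrays of experiment 3 in the fit, 7 rose and 3 fell at 100 µM, and 6 fell at 200 µM. Without 100 µM array 1, 4 genes fell at that dose and Ctsz (adjusted p = 0.093), Atp6v0a2 (0.12), Hexa (0.15) and Cd63 (0.74) lost their calls, and without 100 µM array 2, 14 fell. Ctsd lost its 100 µM call without control 1 (0.058), Cd63 without control 1 (0.24) or 2 (0.055), and Lamp1 without control 2 (0.24) or 100 µM array 2 (0.099).

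Some genes were called in the same direction with CoCl2 and low oxygen, comparisons that share no controls. Of the 10 genes that rose in hypoxia, 6 rose at 200 µM (6 of the 12 there; both in 5.61% of all genes), namely Atp6ap1, Atp6v1h, Ctsa, Ctsb, Ctsh and Cd68. Of the 7 that fell, 5 fell at 200 µM (5 of the 11 there; both in 12.4% of all genes), namely Ctsc, Ctse, Glb1, Gusb and Asah1. No member was called in opposite directions. Over all genes 44.7% of those that rose in hypoxia rose at 200 µM (28.4% of those there), 63.6% of those that fell did so (55.5%), and 2.96% of the 8251 were called in opposite directions. Whether the members differ from all genes in this was not tested.

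The direct test of the mean CoCl2 change against the mean hypoxia change called 7 genes higher and 6 lower with CoCl2 (over all genes 9.33% and 16%). Cd68 had the largest difference (2.40 ± 0.24; limma adjusted p = 1.2e-07), then Ctsd (0.87), Npc1 (0.83), Atp6v0b (0.80), Ctsf (0.69), Atp6ap1 (0.56) and Gaa (0.38). Gusb (-1.13 ± 0.19; limma adjusted p = 9.4e-05), Hexa (-0.78), Glb1 (-0.77), Ctsc (-0.76), Asah1 (-0.54) and Lipa (-0.50) were lower with CoCl2. Ctsd, Npc1, Ctsf and Hexa were not called in hypoxia itself. The controls of experiment 3 lay below all 6 other controls for Ctsd, Npc1, Atp6v0b, Ctsf and Gaa. They lay above them for Glb1, Asah1, Ctsc and Atp6ap1. The gap between the control means was -1.94 for Atp6v0b and -1.01 for Ctsd. The part of these starting levels in the differences was not tested. For Ctsa the difference was 0.25 ± 0.13 (limma adjusted p = 0.16) and for Ctsb 0.42 ± 0.18 (0.096), and neither passed. Of the genes called in this test, further probe sets of Cd68 (0.05), Atp6ap1 (0.23) and Gaa (0.09) were not called. Nor were those of Hexa (0.09), Glb1 (-0.17) and Ctsc (-0.12 and -0.14). Without control 1 of experiment 3 Atp6v0b (adjusted p = 0.14) and Lipa (0.31) were not called, and without control 2 Atp6ap1 (0.084) was not. Lipa was also lost without chamber control 1 (0.053), experiment 2 control 1 (0.054) or 100 µM array 1 (0.076), and without 100 µM array 2 the lower calls rose from 6 to 14.

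**Figure D5:**
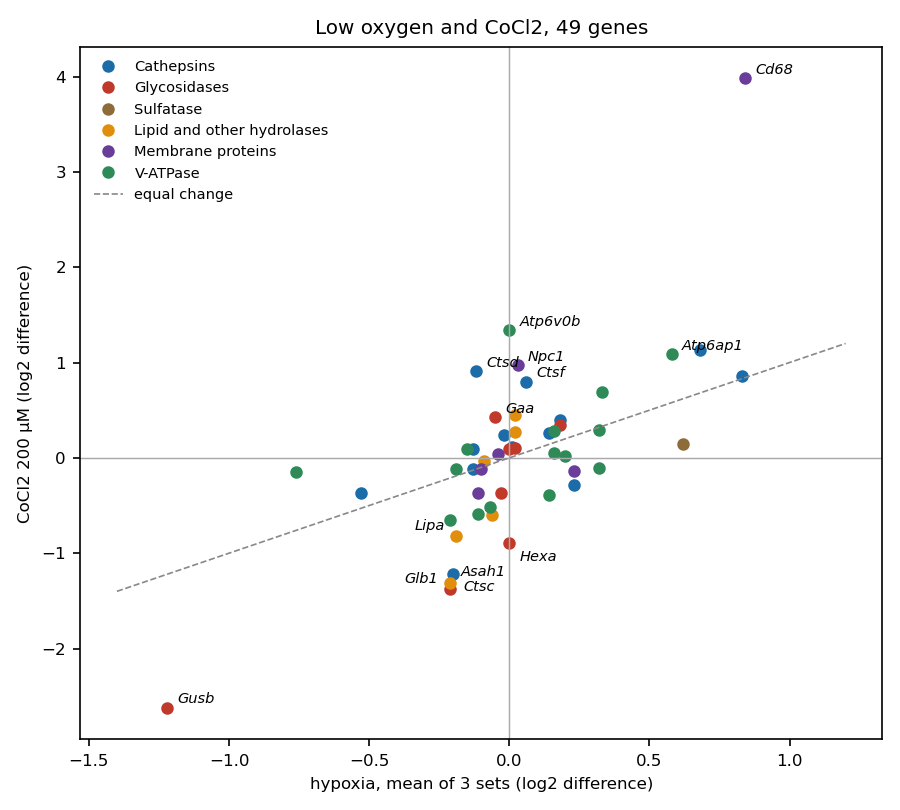
Log2 difference at 200 µM CoCl2 (vertical) against the mean log2 difference of the 3 hypoxia sets (horizontal) for the 49 genes, coloured by role, with the line of equal change dashed. The 13 named genes differed between the mean of both CoCl2 doses and hypoxia, among them Cd68 at 3.98 against 0.84 and Gusb at -2.62 against -1.22.

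Between the doses, 6 genes were higher and 7 lower at 200 µM than at 100 µM (over all genes 7.83% and 8.85%), a comparison that uses no controls. Asah1 (-1.10 ± 0.12; limma adjusted p = 3.3e-06), Glb1 (-0.80; adjusted p = 0.00011), Cd68 (1.48; adjusted p = 0.00017) and Atp6v0b (1.08; adjusted p = 0.0022) had the smallest adjusted p. Asah1 and Glb1 had pairs that were tight at 200 µM (7.01 and 7.10, and 6.14 and 6.15) and did not overlap the lower dose. With the Actb covariate Glb1 (adjusted p = 0.071), Cd68 (0.32; adjusted p = 0.75) and Atp6v0b (-0.22, the opposite direction; adjusted p = 0.81) were not called, and the count was 0 higher and 3 lower. Over all genes the same fit called 26 higher and 128 lower, in place of 646 and 730. Because its slope rests largely on the 200 µM pair, this fit cannot tell whether RNA quality had a part in the dose step. With only the arrays of experiment 3, Glb1 (adjusted p = 0.057), Cd68 (0.052) and Atp6v0b (0.12) were not called. Without 200 µM array 2 Atp6v0b was not called (adjusted p = 0.092) and 1 gene was higher, and without 200 µM array 1, 10 were higher. Without 100 µM array 1, 3 were higher and 15 lower, and without array 2, 3 were lower.

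Genes whose promoter window held CACGTG were set beside those without it. Of the 11 with it, 3 rose and 1 fell in hypoxia, 5 rose and 1 fell at 100 µM, and 5 rose and 1 fell at 200 µM, with medians of 0.06, 0.32 and 0.35. Of the 27 without it, 3 rose and 3 fell in hypoxia, 4 rose and 6 fell at 100 µM, and 3 rose and 7 fell at 200 µM, with medians of -0.02, 0.05 and -0.03. Over all genes 12.6% rose and 19.5% fell in hypoxia, 17.6% and 20.7% at 100 µM, and 19.7% and 22.3% at 200 µM. The differences of these promoter groups from each other and from all genes were not tested. Lamp1, with 4 copies, rose at 100 µM (0.32; limma adjusted p = 0.026) and did not pass in hypoxia (-0.04) or at 200 µM (0.04).

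Other genes of the lysosome pathway were counted by fixed lists. The shares over all genes were 12.6% rising and 19.5% falling in hypoxia, and 19.7% and 22.3% at 200 µM. No list was tested against them. Of 15 measured further lysosomal enzymes and cofactors, 3 rose and 3 fell in hypoxia and at 200 µM (medians 0.03 each). Naglu, which removes N-acetylglucosamine from heparan sulfate, rose in hypoxia (0.43) and fell at 200 µM (-1.16). The glutamyl hydrolase gene Ggh (-0.88) and the fucosidase gene Fuca1 (-0.78) also fell at 200 µM, while Galc, the galactosylceramidase gene, fell in hypoxia (-0.32). Of 21 measured genes of lysosomal membrane and sorting, 3 rose and 2 fell in hypoxia, and 3 rose and 5 fell at 200 µM. The adaptor gene Gga2, which sorts enzymes carrying the mannose 6-phosphate tag, fell in each (-0.77 and -1.32), and the tag's receptor gene Igf2r fell at 200 µM (-1.09) and read 0.10 in hypoxia. The vesicle-tethering genes Vps41 (0.39) and Vps16 (0.34) rose in hypoxia.

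Of 7 measured genes on a list of cathepsin inhibitors, 3 rose and none fell in hypoxia by limma (also none at an unadjusted p under 0.05). At 200 µM 3 rose and 1 fell. Over all genes 12.6% rose and 19.5% fell in hypoxia, and 19.7% and 22.3% at 200 µM. The stefin gene Cstb (0.34 and 0.92) and the serpin gene Serpinb6a (0.52 and 1.02) rose in each. Cst3, which encodes the secreted inhibitor cystatin C, fell at 200 µM (-0.89). The other hypoxia rise was Serping1 (0.16), which encodes the complement C1 inhibitor rather than a cathepsin inhibitor. Of 12 measured genes of the Tfeb family and its mTORC1 regulators, 3 rose and 1 fell in hypoxia, and 4 rose and 4 fell at 200 µM. Ddit4 rose most in each (2.01 and 1.25), and Rraga rose by 0.29 and 0.77. Mtor rose at 200 µM (0.60), where Tsc2 (-0.56) and Lamtor2 (-0.48) fell. Mitf rose in hypoxia (0.89) and fell at 200 µM (-2.01), and Tfeb fell slightly in hypoxia (-0.17) and did not pass at 200 µM (-0.12). Of 18 measured autophagy genes 7 rose and 2 fell in hypoxia, and 13 rose and 3 fell at 200 µM, with medians of 0.09 and 0.62. Sqstm1, the autophagy receptor p62, rose by 2.92 at 200 µM and did not pass in hypoxia (0.11), Gabarapl1 rose by 0.56 and 2.35, and the mitophagy receptor gene Bnip3 rose by 2.76 and 3.39.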

How the data were processed

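RNA of 21 B16-F10 samples was measured on Affymetrix U74Av2 arrays. The authors deposited log2 values from RMA, with GCOS 1.2 also listed per the submitters' processing notes. Which RMA version and probe definition were used, and whether normalisation took in every array together, is not given in the sources used here. Array medians lay between 5.44 and 5.53, and no further scaling was applied.

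Of 12488 probe sets, 10833 had 1 gene symbol and 396 had several and were left out; the probe set with the highest mean stood for each of 8251 genes. The members, the other lists and the rule for naming genes (up to 6 called members in each direction per main comparison, 4 for the dose step, 3 in each direction per other list, and 7 fixed genes) were chosen with earlier results of these data known.

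limma 3.58.1 (R 4.3.3) estimated the 9 group means jointly from the 21 arrays (12 residual degrees of freedom, 20.9 after moderation). Tests were two-sided, adjusted by Benjamini-Hochberg over all 8251 genes, and called at an adjusted p under 0.05. The hypoxia value is the equal-weight mean of the 3 sets. No detection calls were used. Alternatives were other scalings, a filter on low means, the mean of a gene's probe sets, a variance trend, a replicate block, an Actb covariate, fits on the compared sets alone and leaving out each array. The fit was tested on simulated data. Same-numbered arrays were not treated as paired. Sequences come from RefSeq (GRCm38.p6).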

Additional observations from a re-analysis of the deposited data

How the results depend on the processing

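The depth of measurement is limited here by 2 or 3 arrays per group, by RMA values that compress low signals, and by controls that differ between the sets. Of the 56 member values named by the rule in the comparisons with a direction, all 56 kept their direction and call under median centring and with a variance trend, 55 under quantile normalisation, 54 with the mean of a gene's probe sets, 48 with the replicate block, 49 with the Actb covariate and, of the 44 that could be refitted, 35 with only the arrays of the sets compared. With a filter at the 40th percentile of gene means, 52 values remained and all kept their call; that filter removes 8 members. The 1 reversal was that of Atp6v0b between the doses (-0.22 with the Actb covariate). Leaving out 1 array in turn, 43 of the 56 kept their call. Where an arm was left with 1 array, its spread was assumed to be that of the other groups.

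Counts of members called moved by over 1.5 times as follows. Median centring gave 3 lower in experiment 1 in place of 5, and quantile normalisation 11 higher in place of 7 for CoCl2 against hypoxia. With replicate number as a replicate block, 3 fell in the hypoxia mean, 5 rose and 3 fell in experiment 1, and 3 were higher and 2 lower between the doses. Under this block Glb1 (adjusted p = 0.090), Asah1 (0.068), Ctsc (0.22) and Lamp2 (0.095) were not called in hypoxia. The numbers were not taken to pair the samples, since residuals of same-numbered arrays correlated between -0.37 and 0.235. With the Actb covariate 4 fell at 100 µM, 0 were higher and 3 lower between the doses, and 1 differed between the hypoxia sets. With only the arrays of the sets compared, 6 fell in the chamber, 7 rose and 3 fell at 100 µM, 6 fell at 200 µM, 0 were higher and 1 lower between the doses, and 3 differed between the hypoxia sets; that fit has fewer arrays. In other cases the cause was not tested.

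Leaving out 1 array in turn gave 9 to 11 higher and 4 to 7 lower in the hypoxia mean, 2 to 6 and 2 to 3 in the chamber, 5 to 7 and 2 to 5 in experiment 1, and 4 to 6 and 2 to 3 in experiment 2. It gave 10 to 16 and 4 to 14 at 100 µM, 10 to 14 and 8 to 11 at 200 µM, 5 to 9 and 5 to 14 for CoCl2 against hypoxia, and 1 to 10 and 3 to 15 between the doses. None differed between the hypoxia sets in any of these runs (limma F test).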
